A study of Sus scrofa with 9 samples.

Results

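The respiratory chain and ATP synthase transcripts of pig muscle were described by complex. Members were the array probes whose RefSeq accession belongs to a gene with a symbol that begins with NDUF, SDHA to SDHD, UQCR, COX4 to COX8 or ATP5, or that is CYC1, CYCS or a protein gene of the mitochondrial genome. This rule took 111 of 43603 probes, which belong to 28 of the 3196 genes that could be named. The RefSeq table holds 95 genes that fit the rule, so the 28 are a sample of the chain and not all of it. All 13 mitochondrially encoded proteins are in that table and 0 of them had a probe named through it, so only nuclear genes are described here. By complex there were 4 genes of complex I, 2 of complex II, 2 of complex III, 9 of complex IV and 8 of complex V. Outside these stood CYCS, the NDUFA4 paralogue NDUFA4L2 and the complex I assembly factor NDUFAF3.

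The respiratory chain sits in the inner mitochondrial membrane. Complex I takes electrons from NADH and complex II takes them from succinate, both pass them through ubiquinone to complex III, and cytochrome c carries them on to complex IV, which reduces oxygen. Complexes I, III and IV pump protons, and ATP synthase, called complex V, lets the protons return and makes ATP. Muscle depends on this machinery for sustained work, and several subunits of complex IV have a heart and muscle isoform beside a ubiquitous one.

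The animals were Bama minipigs, a small Chinese breed, of both sexes and gonadally intact, aged 6 months when 23 months of feeding began. The 6 pigs of the HFHSD group ate a high-fat high-sucrose diet of 53% basal diet, 37% sucrose and 10% lard, and the 3 pigs of the control diet (CD) group ate standard chow. Both groups were fed restricted meals and fasted overnight before dissection, and the sex of each pig is not given. Longissimus dorsi, a back muscle, was measured on 1 single-colour Agilent array per pig. The series design gives 3 CD pigs and the growth protocol gives 6; 3 CD arrays were analysed here.

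Values are log2 of the processed spot signal minus the 75th percentile of the array, so 0 is that percentile, and differences are HFHSD minus CD. The share of probes well above background, as the scanner software calls it, was 51.1% to 68.8% on 8 arrays and 36.7% on CD 1. HFHSD 5 and HFHSD 6 shared slide 1, which was scanned on another day than the rest. CD 1 was on slide 2 together with HFHSD 1, 3 and 4. The remaining controls, CD 2 and CD 3, were on slide 3 beside HFHSD 2. Members were measured well in spite of this, with 109 of 111 probes well above background on all 9 arrays. All 111 passed the filter on dim probes, so no member was lost to it.

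By its brightest probe each of the 28 genes was lower in HFHSD in these values, but only 10 of 28 were lower when the background was corrected by normexp before percentile scaling. Differences ran from -0.82 for ATP5G3, a c subunit of the ATP synthase rotor, to -0.017 for NDUFC1 of complex I. Their median was -0.37, which is 77.2% of the CD level, and with normexp and percentile scaling it was 0.087. Over all 2613 tested named genes 57.6% were lower, with a median of -0.086. No member gene passed by its brightest probe at an adjusted p under 0.05 (limma with Benjamini-Hochberg adjustment over 27922 probes), where 0.995% of the named genes passed. In one alternative, normexp with quantile normalization, 3 genes passed, namely COX5B, COX6B and ATP5I, where 3.79% of the named genes passed. An unadjusted p under 0.05 with the lower value in HFHSD was found for 9 of 28 genes, or 32.1%, against 11.7% of named genes. For 8 of 28 genes, or 28.6%, every HFHSD array was below every CD array, against 8.84% of named genes. Counted by probe, all but 4 of 111 were lower, against 52.2% of all tested probes. Of the 111, 25 or 22.5% had a lower value with an unadjusted p under 0.05, against 8.79%, and 16 or 14.4% were lower without overlap, against 6.11%. Most members are bright. In a fit of only the probes well above background on all 9 arrays, 13.7% of all probes were lower at that p.

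**Figure D1:**
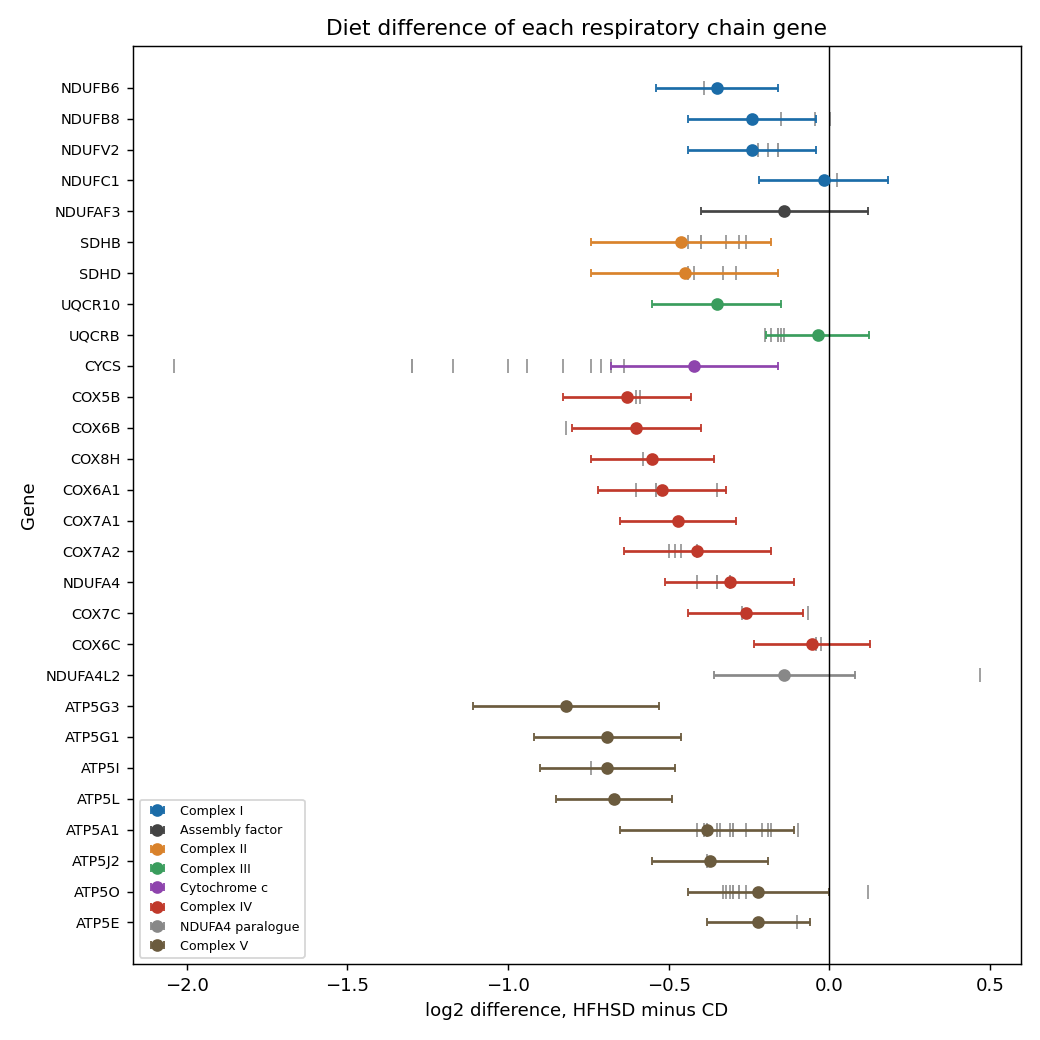
Log2 difference (HFHSD minus CD, 6 against 3 arrays) of each of the 28 genes on the horizontal axis, by complex; points are the brightest probe with the SE of the limma fit, and grey ticks are the gene's other probes. All 28 points lie below 0 in these values, a direction that turned for 18 of them with normexp and percentile scaling.

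These counts moved with the background correction and with single arrays. The median of all tested probes was -0.025, and with normexp and percentile scaling it was -0.17, so the members then stood 0.26 above the array as a whole. With quantile normalization the median over the members was -0.25, and 25 of 28 genes were lower. It was -0.27 with normexp and quantile normalization, again with 25 genes lower. Without CD 1, the dim array, it was -0.34 with 26 genes lower, 4 genes with an unadjusted p under 0.05 (6.51% of all tested probes were lower at that p) and 10 without overlap (10.3% of named genes). Without the arrays of slide 1 it was -0.30 with 26 genes lower, 6 with an unadjusted p under 0.05 (10.9% of all tested probes) and 8 without overlap (13.4% of named genes). With normexp and percentile scaling 0 genes had a lower value with an unadjusted p under 0.05, against 3.64% of all tested probes, and 0 were lower without overlap, against 2.10% of named genes. The shares at that p are over probes here. In the values as first given they were 8.79% over probes and 11.7% over named genes. Of the 28 genes, 10 were lower in all 24 alternatives, among them SDHD, the membrane anchor of complex II. The other 9 were COX5B, COX6B, COX8H, COX7A1 and COX6A1 of complex IV and ATP5L, ATP5I, ATP5G1 and ATP5G3 of complex V. Some of the alternatives could not change a gene's direction. The deposited value table held the same values, and another filter on dim probes or another variance prior leaves each difference as it was.

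**Figure D2:**
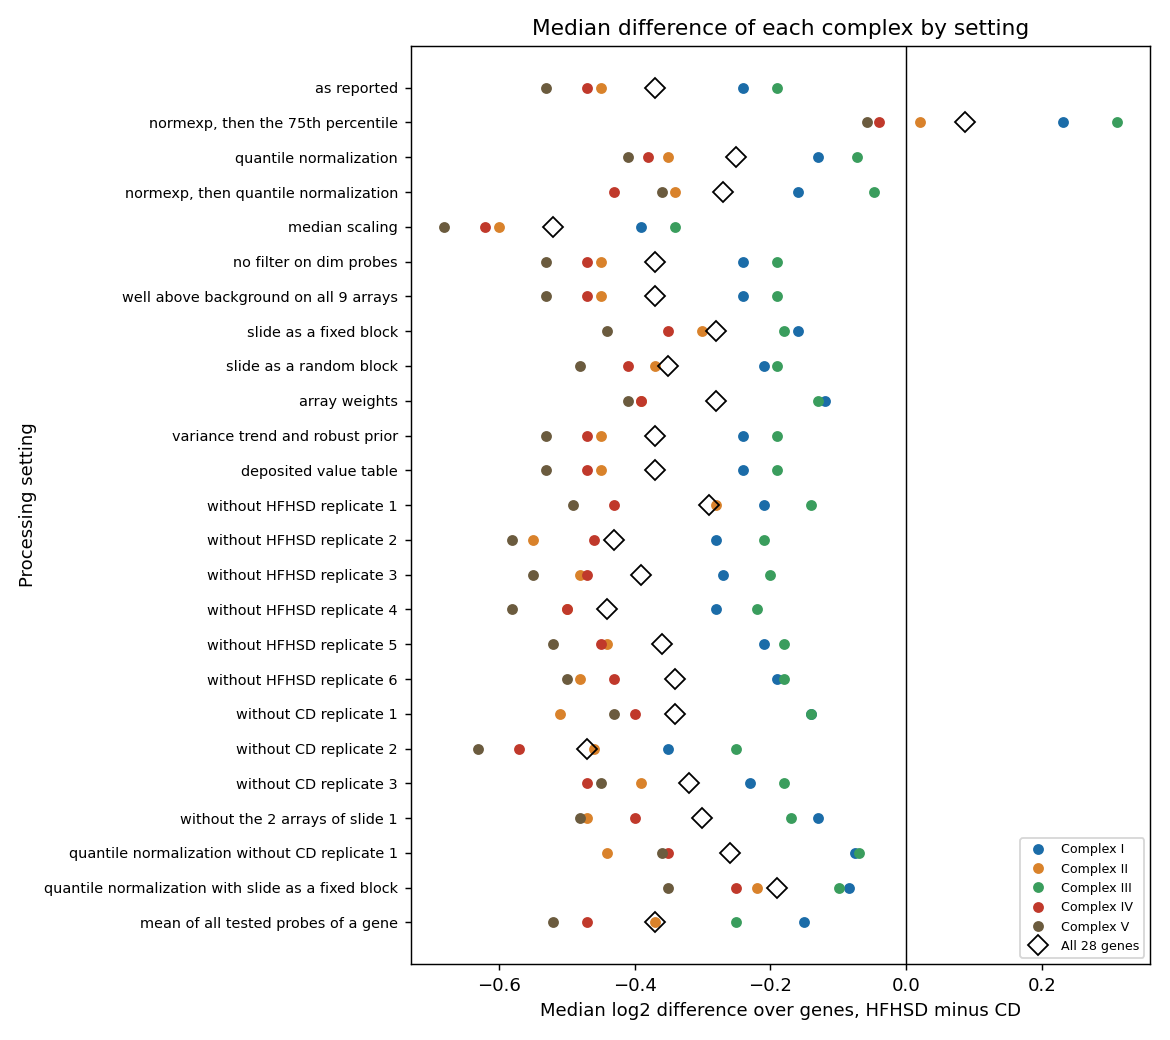
Median log2 difference (HFHSD minus CD) over the genes of each complex on the horizontal axis, for each way of processing on the vertical axis; open diamonds are all 28 genes. Medians of complexes IV and V are below 0 in every setting shown, at -0.04 and -0.058 with normexp and percentile scaling, where complexes I, II and III are above 0.

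Complex I was represented by 4 genes, and none had an unadjusted p under 0.05. NDUFV2, a core subunit of the module that oxidises NADH, was at 7.14, 6.77 and 6.92 in CD and ran from 6.40 over a median of 6.75 to 6.93 in HFHSD. The diets overlapped, and the difference was -0.24 (SE 0.20, limma adjusted p = 0.616), with all 5 probes lower. Accessory subunit NDUFB8 of the membrane arm was at 7.29, 6.83 and 7.15 in CD and from 6.60 over 6.88 to 7.07 in HFHSD, a difference of -0.24 (SE 0.20) with overlap. NDUFB6, another accessory subunit, was at 5.54, 5.66 and 5.88 in CD and from 5.01 over 5.39 to 5.63 in HFHSD, and its difference was -0.35 (SE 0.19, limma adjusted p = 0.416). NDUFC1, also of the membrane arm, was at 6.81, 6.47 and 6.58 in CD and from 6.18 over 6.62 to 6.89 in HFHSD. Its 2 probes differed by -0.017 and 0.025, and it was the member with the least difference. The median of the complex was -0.24, and 0.23 with normexp and percentile scaling. NDUFAF3, which helps to assemble complex I, was at 5.25, 4.86 and 4.85 in CD and from 4.29 over 5.01 to 5.19 in HFHSD, with overlap.

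Complex II was covered by SDHB and SDHD. SDHB, the subunit with the iron-sulphur clusters, was at 6.61, 6.48 and 6.71 in CD and from 5.30 over 6.23 to 6.62 in HFHSD. HFHSD 1 was the lowest array and HFHSD 2 lay within the CD values, so the difference of -0.46 (SE 0.28, limma adjusted p = 0.467) did not exceed the spread between pigs. All 7 SDHB probes were lower, from -0.46 to -0.26. SDHD was at 4.28, 4.59 and 4.64 in CD and from 3.12 over 4.17 to 4.51 in HFHSD, a difference of -0.45 (SE 0.29, limma adjusted p = 0.504), with all 5 probes lower. In this brightest probe HFHSD 1, at 3.12, stood apart from the other HFHSD arrays, which were between 4.03 and 4.51. The gene's other probes did not show this, and HFHSD 5 was the lowest array in each. In A_72_P562534, for example, HFHSD 5 was at 3.01 and HFHSD 1 at 3.72. The median of the 2 genes was -0.45, and 0.02 with normexp and percentile scaling.

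Complex III was covered by UQCR10 and UQCRB, both small accessory subunits. UQCR10, with a single probe, was at 8.94, 8.47 and 8.61 in CD and from 8.04 over 8.34 to 8.65 in HFHSD, a difference of -0.35 (SE 0.20, limma adjusted p = 0.452) with overlap. UQCRB, which borders the ubiquinone site, was at 7.67, 7.69 and 7.85 in CD and from 7.5 over 7.7 to 7.85 in HFHSD. It differed by -0.036 (SE 0.16), and its 7 probes by -0.20 to -0.036. With normexp and percentile scaling the median of the pair was 0.31.

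Cytochrome c, the mobile carrier encoded by CYCS, held the only member probe that passed. Of its 12 probes 1 passed, as lower, namely A_72_P654023, which is 0.901% of the 111 member probes. Of all tested probes 0.541% passed as lower and 1.24% in either direction. The members' share was above the former and below the latter, and it rests on a single probe. This probe was at 5.37, 5.10 and 5.20 in CD and at 3.60, 4.23, 3.79, 4.47, 3.86 and 3.62 in HFHSD 1 to 6. Every HFHSD array was below every CD array, and the difference was -1.30 (SE 0.23, limma adjusted p = 0.034). Over the alternatives the adjusted p ran from 0.0142 to 0.508. It was 0.0995 with slide as a fixed block, where the difference was -1.18, and within slides the probe differed by -1.41 on slide 2 and -0.92 on slide 3. The call was also lost when any one of HFHSD 1, HFHSD 2, HFHSD 3, HFHSD 5, HFHSD 6, CD 1, CD 2 or CD 3 was left out.

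The remaining CYCS probes were all lower too, but by very unequal amounts, and the 12 probes of a gene share its RNA and are not replicates. Differences ran from -2.04 to -0.42. An unadjusted p under 0.05 was found for 8 of 12, where 8.79% of all tested probes were lower at that p. In the fit of only the probes well above background on all 9 arrays that share was 13.7%. Without overlap were 4 of 12, where 6.11% of all tested probes were lower without overlap. The brightest probe, A_72_P573694, showed the least difference. It was at 7.10, 6.88 and 7.91 in CD and from 6.51 over 6.84 to 7.15 in HFHSD, which gave -0.42 (SE 0.26, limma adjusted p = 0.466), and 0.017 with normexp and percentile scaling. Probes A_72_P584036 and A_72_P667834 differed by -1.30 (SE 0.31, limma adjusted p = 0.0771) and -1.17 (SE 0.28, limma adjusted p = 0.0763), with no overlap in either. In these 2 probes HFHSD 5 and HFHSD 6 were the lowest arrays, at 4.74 and 5.08 in the former and 4.57 and 4.78 in the latter. In A_72_P681213, by contrast, HFHSD 5 was the highest HFHSD array at 5.68, inside the CD range of 5.63 to 5.93.

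**Figure D3:**
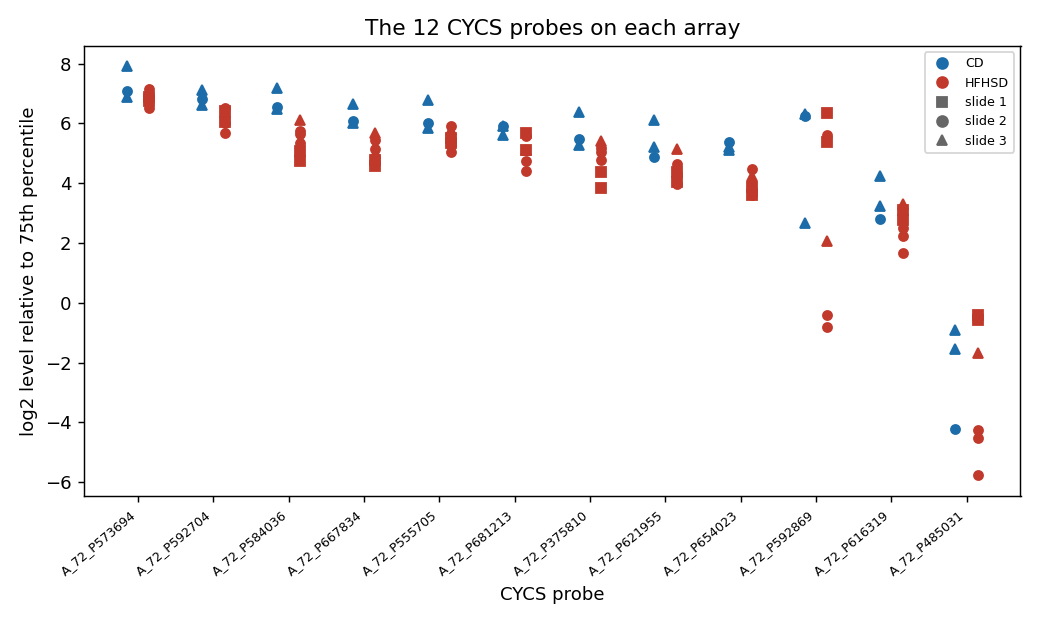
Log2 level relative to the array's 75th percentile of the 12 CYCS probes, in order of their CD mean; blue points are the 3 CD arrays, red points the 6 HFHSD arrays, and shapes give the slide. The CD points lie above all HFHSD points in 4 probes, among them A_72_P654023, while A_72_P592869 spans 7.15 over the 9 arrays; levels of different probes are not comparable.

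Complex IV, cytochrome c oxidase, was the best covered, with 9 genes. Of these, 5 or 55.6% had an unadjusted p under 0.05, all lower, against 11.7% of named genes. Without overlap 4 or 44.4% were lower, against 8.84% of named genes. The median was -0.47, or 72.2% of the CD level, and it shrank to -0.04 with normexp and percentile scaling. COX5B, a structural subunit on the matrix side, was at 9.52, 9.23 and 9.39 in CD and from 8.41 over 8.73 to 9.11 in HFHSD. Its difference was -0.63 (SE 0.20, limma adjusted p = 0.145, and 0.0391 to 0.74 over the alternatives), and its 3 probes gave -0.63 to -0.59. COX6B, which faces the intermembrane space, was at 7.81, 7.82 and 7.83 in CD and from 6.86 over 7.16 to 7.68 in HFHSD, a difference of -0.60 (SE 0.20, limma adjusted p = 0.17). The CD arrays lay within an SD of 0.01 and the HFHSD arrays had an SD of 0.28. Its dimmer probe differed by -0.82 (SE 0.32) and overlapped, with CD 1 at 3.36 below HFHSD 2 at 3.51.

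Complex IV also has muscle and ubiquitous isoforms, and both kinds were among its measured genes. COX8H, the heart and muscle isoform of subunit VIII, was at 9.81, 9.30 and 9.37 in CD and from 8.68 over 8.96 to 9.10 in HFHSD. It differed by -0.55 (SE 0.19, limma adjusted p = 0.183), and by -0.40 without CD 1, its highest array. COX7A1, the muscle isoform of subunit VIIa, was at 8.95, 8.76 and 8.87 in CD and from 8.18 over 8.35 to 8.72 in HFHSD, a difference of -0.47 (SE 0.18, limma adjusted p = 0.235) without overlap. COX7A2, its ubiquitous counterpart, was at 6.5, 6.02 and 6.5 in CD and from 5.58 over 5.87 to 6.39 in HFHSD, a difference of -0.41 (SE 0.23, limma adjusted p = 0.43) with overlap. The difference between the 2 isoforms' responses was not tested. With normexp and percentile scaling COX7A1 was at -0.04 and COX7A2 at 0.13. COX6A1, the ubiquitous isoform of subunit VIa, was at 5.83, 5.30 and 5.71 in CD and from 4.82 over 5.10 to 5.43 in HFHSD, which gave -0.52 (SE 0.20, limma adjusted p = 0.239). All 5 of its probes were lower and 4 had an unadjusted p under 0.05. Its lowest array was HFHSD 2, the array that was highest of HFHSD for 14 of the 28 genes.

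The other complex IV genes were nearer to 0 in these values, which was not tested. COX6C, a structural subunit, was at 8.10, 7.68 and 8.07 in CD and from 7.70 over 7.89 to 8.10 in HFHSD, and its 3 probes differed by -0.054 to -0.024. COX7C, also structural, differed by -0.26 (SE 0.18), with 3 of 3 probes lower, and by 0.26 with normexp and percentile scaling. NDUFA4, first assigned to complex I and later to complex IV, was at 9.62, 9.35 and 9.53 in CD and from 8.90 over 9.15 to 9.50 in HFHSD. It differed by -0.31 (SE 0.20, limma adjusted p = 0.511), with all 6 probes lower, and by 0.11 with normexp and percentile scaling. Its paralogue NDUFA4L2, which low oxygen is known to induce, was at 1.60, 1.74 and 1.43 in CD and from 1 over 1.49 to 1.78 in HFHSD. The 2 NDUFA4L2 probes went opposite ways, at -0.14 (SE 0.22) and 0.47 (SE 0.28), and neither passed. The probe at 0.47 was much dimmer, with a CD mean of -2.84 against 1.59. It exceeded background well on only 2 of the 3 CD arrays.

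Complex V, the ATP synthase, had the lowest median of the complexes with these values, -0.53 over 8 genes, or 69.4% of the CD level; with normexp and percentile scaling it was -0.058. Of its 8 genes, 4 had a lower value with an unadjusted p under 0.05, against 11.7% of named genes. Without overlap 4 were lower, against 8.84% of named genes. Both measured genes of the c subunit, which forms the rotor ring, were lower. ATP5G1 was at 8.95, 8.65 and 8.68 in CD and from 7.62 over 8.03 to 8.56 in HFHSD, a difference of -0.69 (SE 0.23, limma adjusted p = 0.176). ATP5G3 was at 8.34, 7.93 and 8.32 in CD and from 6.98 over 7.19 to 8.04 in HFHSD, a difference of -0.82 (SE 0.29, limma adjusted p = 0.189), and HFHSD 2 overlapped CD 2. Each has a single probe, so no second measurement of these genes was at hand.

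Subunits of the membrane part of complex V were lower as well. ATP5I, the e subunit, was at 9.04, 8.47 and 8.62 in CD and from 7.73 over 8.05 to 8.29 in HFHSD. It differed by -0.69 (SE 0.21, limma adjusted p = 0.135, and 0.0313 to 0.737 over the alternatives), its other probe by -0.74 (SE 0.19, limma adjusted p = 0.0912), and neither probe overlapped. ATP5L, the g subunit, was at 1.46, 1.46 and 1.86 in CD and from 0.70 over 0.96 to 1.12 in HFHSD. This gene had the smallest p of the 28, with a difference of -0.67 (SE 0.18, limma adjusted p = 0.105), and -0.38 with normexp and percentile scaling. It rests on a single probe, which was dimmer than the brightest probe of every other complex V gene. ATP5J2, the f subunit, differed by -0.37 (SE 0.18) with overlap.

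The catalytic head and the stalk were represented by ATP5A1, ATP5O and ATP5E. ATP5A1, the alpha subunit, had 14 probes, all lower, at -0.41 to -0.097, and its brightest one differed by -0.38 (SE 0.27, limma adjusted p = 0.542). ATP5O, the stalk subunit OSCP, was at 7.74, 7.55 and 7.64 in CD and from 6.95 over 7.33 to 7.87 in HFHSD. It differed by -0.22 (SE 0.22) with 9 of 10 probes lower; the exception, A_72_P625290, was at 0.12 with CD 1 as its lowest array. ATP5E, the epsilon subunit, differed by -0.22 (SE 0.16), and its brightest probe was without overlap, with CD at 9.02, 9.08 and 9.00 and HFHSD at no more than 8.97. With normexp and percentile scaling ATP5A1, ATP5J2, ATP5O and ATP5E stood above 0, at 0.078, 0.14, 0.31 and 0.23.

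**Figure D4:**
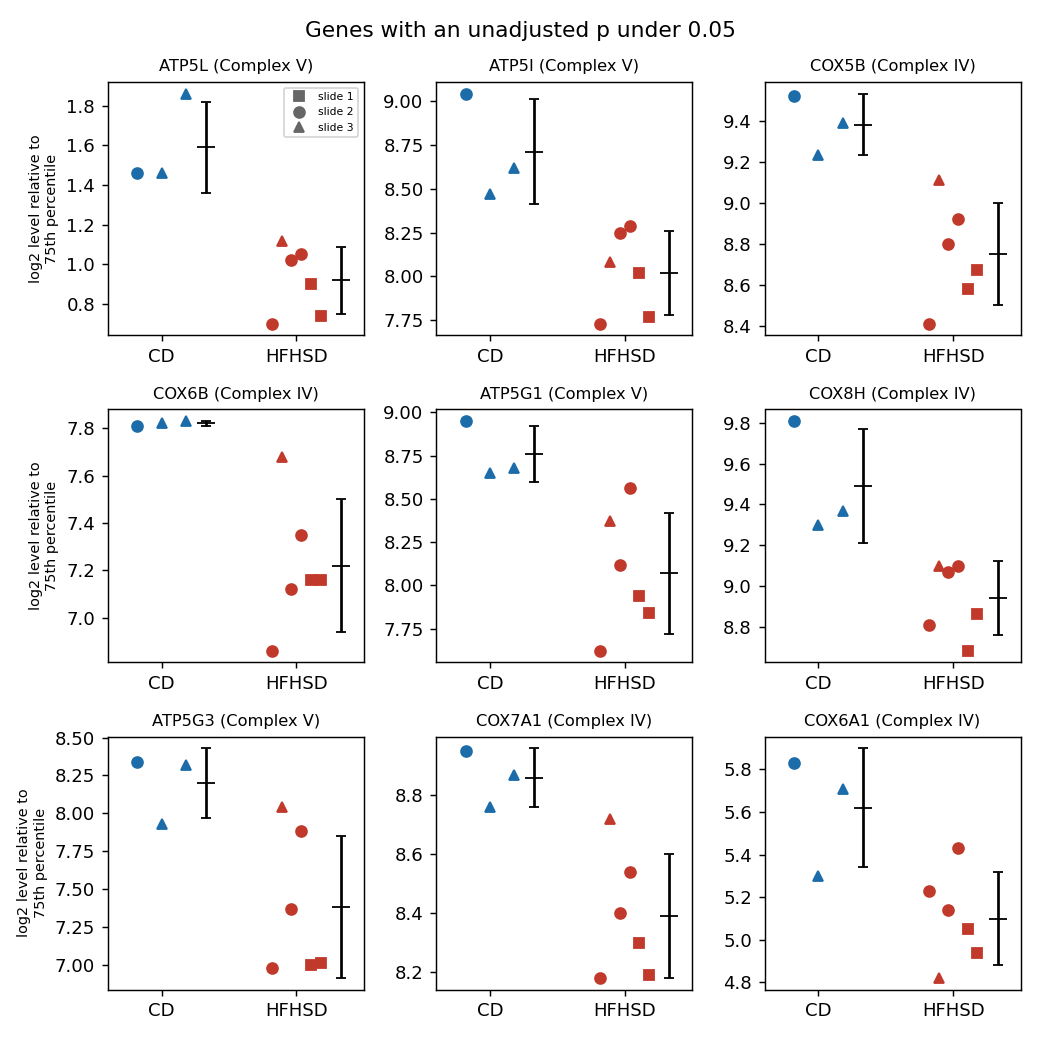
Log2 level relative to the array's 75th percentile of the 9 genes with an unadjusted p under 0.05, in CD (3 arrays, blue) and HFHSD (6 arrays, red), with the mean and SD as bars and the slide as the marker's shape; each panel has its own axis. The diets do not overlap in ATP5L, ATP5I, COX5B, COX6B, ATP5G1, COX8H and COX7A1, and they overlap in ATP5G3 and COX6A1; all 9 stayed below 0 with normexp and percentile scaling, COX7A1 at -0.04.

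The HFHSD pigs differed among themselves by as much as the diets did. Taking each gene against its CD mean, the median over the 28 genes was -0.66 on HFHSD 1, -0.54 on HFHSD 5 and -0.54 on HFHSD 6. It was only -0.29 on HFHSD 3, -0.18 on HFHSD 4 and -0.14 on HFHSD 2. The CD arrays were at 0.14 for CD 1, -0.15 for CD 2 and 0.0097 for CD 3, so HFHSD 2 and HFHSD 4 were next to CD 2. HFHSD 1 was the lowest of the 9 arrays for 15 of 28 genes, and CD 1 was the highest for 16. Over all named genes the same median was between -0.19 and -0.052 on the HFHSD arrays and 0.10 on CD 1. Both arrays of slide 1 were thus on the low side, and their scan day and slide cannot be told apart from these 2 pigs.

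**Figure D5:**
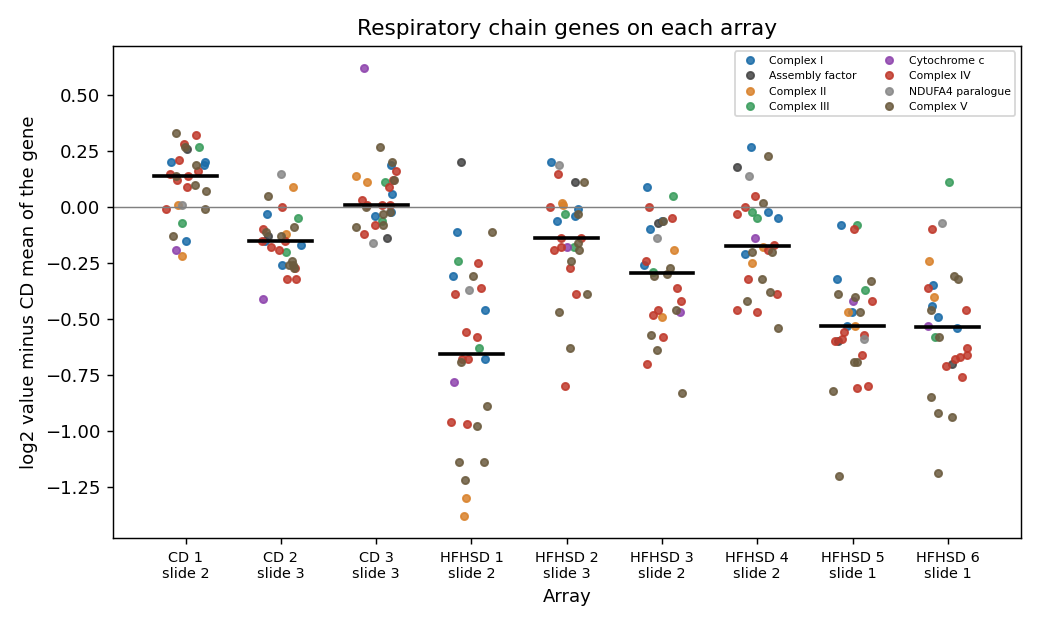
Log2 value of each of the 28 genes minus its own CD mean, for each of the 9 arrays, with the slide under the name, points coloured by complex and a black bar at the median. The bars are at -0.66, -0.54 and -0.54 on HFHSD 1, 5 and 6 and at -0.14 and -0.18 on HFHSD 2 and 4, near CD 2 at -0.15; with normexp and percentile scaling the median difference of the diets was above 0.

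Within slides the 2 slides with both diets gave different sizes. On slide 2, where CD 1 is the only CD array, all 28 genes were lower with a median of -0.47, against 62.3% of named genes and a median of -0.16. On slide 3, where HFHSD 2 is the only HFHSD array, 18 of 28 genes were lower with a median of -0.076, against 53.7% and -0.046. By complex the medians on slide 3 were 0.074 for complex I, -0.042 for complex II, -0.052 for complex III, -0.098 for complex IV and -0.17 for complex V. On slide 2 they were -0.29, -0.53, -0.30, -0.57 and -0.57 in the same order. ATP5L was at -0.54 on both slides, ATP5I at -0.95 and -0.47 and COX6A1 at -0.57 and -0.69. COX5B was at -0.81 on slide 2 and -0.20 on slide 3. A fixed block for slide gave a median of -0.28 over the 28 genes, of which 25 were lower. Of the 28, 5 had a lower value with an unadjusted p under 0.05. Of all tested probes 10.1% did so in that fit and 8.79% without the block.

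Other genes that build, feed or regulate the chain were taken from a list of 84 symbols, of which 17 were measured. Of these 17, 13 were lower and 4 higher, with a median of -0.46, 1 passed as lower and 0 as higher, where 0.498% of named genes passed in each direction. The gene that passed was SLC25A6, a carrier that exchanges ADP for ATP across the inner membrane. It was at 7.83, 7.48 and 7.61 in CD and from 6.05 over 6.25 to 6.48 in HFHSD, and it fell by 1.39 (SE 0.18, limma adjusted p = 0.0141), with all 6 probes passing. Without CD 1, without CD 3 and with normexp and percentile scaling 0 of the 17 passed, where 0.0765%, 0.0765% and 0.306% of named genes passed. SLC25A3, the phosphate carrier that supplies ATP synthase, was at 9.09, 8.69 and 8.85 in CD and from 7.95 over 8.18 to 8.59 in HFHSD. Its difference was -0.66 (SE 0.21, limma adjusted p = 0.154) without overlap.

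TACO1, which activates the translation of a mitochondrially encoded complex IV subunit, was at 0.06, -0.07 and 0.58 in CD and from -1.53 over -0.83 to -0.51 in HFHSD. It differed by -1.10 (SE 0.25, limma adjusted p = 0.0666) without overlap, on the strength of 1 probe. CS, the citrate synthase often used as a measure of mitochondrial content, was at 7.47, 7.29 and 7.49 in CD and from 6.31 over 6.64 to 6.98 in HFHSD, a difference of -0.79 (SE 0.20, limma adjusted p = 0.0824). VDAC2, a channel of the outer membrane, differed by -0.63 (SE 0.24, limma adjusted p = 0.228), while VDAC1 differed by -0.062 and VDAC3 by 0.039. PPARGC1A, the coactivator that drives mitochondrial biogenesis, was at 3.88, 2.56 and 5.81 in CD and from 1.89 over 2.33 to 4.03 in HFHSD. Its CD arrays differed from each other by more than the diets did, and the difference of -1.47 (SE 0.68) had an adjusted p of 0.321 in limma. TFAM, which packages and transcribes mitochondrial DNA, differed by 0.0022 (SE 0.20) and TFB1M, a methylase of mitochondrial ribosomal RNA, by -0.031 (SE 0.18).

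The tissue label was borne out by its markers, and all 14 measured of 17 muscle genes were well above background on every array. Among them were ACTA1, the actin of skeletal muscle, at 11.07 in CD and 10.88 in HFHSD, and CKM, the muscle creatine kinase, at 10.88 and 10.71. Of the 14, 11 were lower, 0 passed and the median was -0.13. Their summed level was 13.65 to 14.06 in CD and 13.39 to 13.81 in HFHSD. MYH2, the myosin of fast oxidative fibres, was at 9.21, 9.18 and 8.98 in CD and from 7.57 over 8.01 to 8.94 in HFHSD, a difference of -1.0 (SE 0.32, limma adjusted p = 0.158) without overlap. TNNT3, the troponin T of fast fibres, had the smallest p of the list and was at 10.67, 10.22 and 10.24 in CD and from 8.45 over 9.48 to 9.75 in HFHSD, a difference of -1.04 (SE 0.29, limma adjusted p = 0.108) without overlap. The other myosins differed by 0.61 (SE 0.31, limma adjusted p = 0.371) for MYH4 and 0.014 (SE 0.27) for MYH1, both of fast fibres, and by -0.22 (SE 0.35) for MYH7 of slow fibres. In whole muscle, fewer fibres of a type and less RNA per fibre cannot be told apart.

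Of 15 adipocyte genes, 14 were measured and 12 were higher, with a median of 0.98. Of these 1 passed, against 0.498% of named genes that passed as higher: CIDEA, a lipid droplet protein, which rose by 1.49 (SE 0.28, limma adjusted p = 0.038). ADIPOQ, the fat cell hormone adiponectin, was at -1.03 in CD and 1.44 in HFHSD on average (limma adjusted p = 0.113). The diets overlapped in it, with HFHSD 4 at -0.93 and CD 3 at -0.71. PLIN1, a droplet coat protein, exceeded background well on 0 of 3 CD and 5 of 6 HFHSD arrays. The summed adipocyte level was 9.05 to 9.70 in CD and 8.88 to 9.64 in HFHSD. Most of this sum is GPD1, at 8.71 to 9.52 in CD and 8.38 to 9.14 in HFHSD, with a difference of -0.24 (SE 0.24). The sum therefore says little of the dimmer adipocyte genes. Of 6 endothelial genes 4 were measured, at 4.81 to 4.93 summed in CD and 4.45 to 5.24 in HFHSD. The 5 measured of 10 leukocyte genes summed to 3.65 to 4.24 and 2.87 to 4.21, the 3 of 6 fibroblast genes to 6.02 to 7.06 and 6.29 to 7.00, and the 2 of 4 smooth muscle genes to 9.62 to 10.25 and 9.05 to 9.64. None of the 4 blood genes had a named probe. The part of cell composition in the lower values of the respiratory chain genes was not tested.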

How the data were processed

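Total RNA was amplified and labelled with Cy3, per the labels' protocols. The deposited scanner files give intensity values, which the authors extracted with Agilent Feature Extraction 10.7.3.1, per the file headers; their headers list statistics of a fitted spatial trend, and a column of background-subtracted signal stands beside the processed one. No scaling between arrays is recorded there. The deposited value table held the same intensity values, with 0 features that differed on each array. Control spots and outlier spots were left out (22 probes dropped), spots of a probe were averaged in log2, and the array's 75th percentile was subtracted.

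Probes well above background on at least 3 arrays were tested (27922) with limma 3.58.1 in R 4.3.3, two-sided, without covariates, with Benjamini-Hochberg adjustment over all of them. Each array is 1 pig, and the number of arrays limits the precision. Probes got gene names by looking up their unversioned accession in a RefSeq table of Sscrofa11.1, used for names only; 6891 probes were named. The files give no mean spot signal, so normexp (offset 50) used the median signal. A gene is represented by its brightest probe. Described array by array are genes with a passing probe, up to 24 with an unadjusted p under 0.05, the 3 smallest p and the largest p of each complex, and measured isoform sets; the others are given in brief. The members and lists were chosen with earlier results of these data known. The fit was tested on simulated data that had no slide effect, so that test says nothing about the uneven slides.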

Additional observations from a re-analysis of the deposited data

Results flagged for a closer look

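By its brightest probe SDHD on HFHSD 1 stood apart from the other HFHSD arrays, at 3.12 against 4.03 to 4.51. This gap takes 0.653 of the group's range. In the other SDHD probes HFHSD 5 was the lowest array, so the gap belongs to that probe. Only brightest probes were examined in this way. The SDHD set was the only one of 34 sets of 6 HFHSD values in which a single array stood so far from the rest. Chance gives this for about 5% of such sets.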

How the results depend on the processing

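Of the 28 genes, 10 were lower in all 24 alternatives, some of which could not change a gene's difference. With normexp and percentile scaling 18 turned, and the cause was not tested. In that setting the medians were 0.23 for complex I, 0.02 for complex II, 0.31 for complex III, -0.04 for complex IV, -0.058 for complex V and 0.087 for all 28 genes. NDUFC1 was then 0.49, COX6C 0.48, UQCRB 0.40, ATP5O 0.31, NDUFB8 0.28, NDUFAF3 0.27, UQCR10 0.23, NDUFV2 0.18, COX7A2 0.13, NDUFA4 0.11, SDHB 0.093, NDUFA4L2 0.08, NDUFB6 0.048 and CYCS 0.017. The median of complex III was -0.048 with normexp and quantile normalization and -0.34 with median scaling, and that of complex IV was -0.25 with quantile normalization and slide as a fixed block, an alternative chosen after seeing the data.

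Genes near 0 turned in other settings. NDUFC1 was 0.12 with quantile normalization, 0.13 with normexp and quantile normalization, 0.074 and 0.019 with slide as a fixed and a random block, 0.094 with array weights and 0.004 with the mean of its probes. COX6C was 0.075, 0.10 and 0.017 with quantile normalization, normexp and quantile normalization, and array weights, and UQCRB 0.079 and 0.046 with the former 2. NDUFA4L2 was 0.023 with slide as a fixed block and 0.17 with the mean of its probes, and NDUFAF3 was 0.035 with slide as a fixed block and 0.012 with array weights. Without single arrays NDUFC1 ran from -0.094 to 0.078, COX6C from -0.19 to 0.021 and UQCRB from -0.067 to 0.019. Among alternatives chosen after seeing the data, leaving out slide 1 gave 0.11 for NDUFAF3 and 0.10 for NDUFC1. Quantile normalization without CD 1 gave 0.10 for COX6C, 0.055 for NDUFAF3, 0.17 for NDUFC1 and 0.012 for UQCRB, and with slide as a fixed block it gave 0.057 for COX6C, 0.077 for NDUFA4L2, 0.13 for NDUFAF3, 0.18 for NDUFC1 and 0.024 for UQCRB.

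The number of member probes that passed was 1 and became 7 with normexp and quantile normalization (6.31% of members, 3.05% of all probes), 4 with probes well above background on all 9 arrays only (3.67% and 4.64%), 3 with array weights (2.70% and 4.32%), 4 with a variance trend and robust prior (3.60% and 2.20%) and 4 at an adjusted p under 0.1 (3.60% and 4.34%). It was 0 with normexp and percentile scaling, median scaling, no filter on dim probes, slide as a fixed block, without slide 1, and with quantile normalization without CD 1 or with slide as a fixed block; without single arrays it was 0 to 1. Member genes that passed went from 0 to 3 with normexp and quantile normalization (3.79% of named genes). Of the other mitochondrial genes 1 passed, where 0.995% of named genes passed. The number was 4 with normexp and quantile normalization (3.79%) and 3 with probes well above background on all 9 arrays (4.58%). With array weights it was 2 (4.06%) and with a variance trend 3 (2.37%). It was 0 with normexp and percentile scaling (0.306%) and with quantile normalization without CD 1 (0.0765%). Without single arrays it was 0 to 1 (0.0765% to 1.22%). Over all probes 345 passed, and at the same threshold from 25 without CD 3 to 1206 with array weights. No paired analysis was possible because the replicate numbers only name the pigs in accession order and pair none.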

Other observations

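Among the member probes, 2 CYCS probes spread far more between pigs than between diets. A_72_P592869 was at 6.25, 6.30 and 2.66 in CD and at -0.81, 2.06, -0.41, 5.63, 6.34 and 5.39 in HFHSD 1 to 6, a range of 7.15 that 0.143% of all tested probes reached. High and low arrays occurred in both diets and on slides 2 and 3, and the difference of -2.04 (SE 1.75) had an adjusted p of 0.642 in limma. A_72_P485031 was at -4.24, -1.56 and -0.91 in CD and at -5.78, -1.69, -4.25, -4.53, -0.59 and -0.41 in HFHSD 1 to 6, a range of 5.37 that 0.777% of tested probes reached. It exceeded background well on 2 of the 3 CD and 3 of the 6 HFHSD arrays, and its low arrays were those of slide 2. For the other 10 CYCS probes the range over the 9 arrays was no more than 2.57.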
